A study of Mus musculus with 8 samples.

Results

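The 7 genes described here are some of those that separated the Lrig1 KO from WT mice. Clec3b, Trmt13, Gm37773 and Gm53013 were higher in every KO mouse than in any WT mouse, and Tfcp2l1, Gucy2e and Plin3 were lower in every KO mouse. They were chosen by their CPM values, as listed genes whose 4 KO and 4 WT values in CPM (the reads of a gene relative to the size of its library, scaled between libraries by the trimmed mean of M values) did not overlap. The KO-WT difference of these 7 genes is therefore a description and carries no test. The table held 54307 genes, 17669 of them had enough reads to be fitted, all 7 among these, and 271 of the 17669 (1.53%) met the same criterion, 116 with the KO mice above (0.657%) and 155 with the KO mice below (0.877%).

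The RNA came from the ventricular-subventricular zone (V-SVZ), the stem cell niche that lines the lateral ventricles of the adult mouse brain. LRIG1 is a transmembrane protein that restrains growth factor receptors and is known as a marker of quiescent stem cells in several tissues. The KO mice were homozygous for a CreERT2 cassette inserted into the first exon of Lrig1 (Lrig1tm1.1(cre/ERT2)Rjc/J) and the WT mice were littermates from crosses of heterozygotes. All 8 mice were on a 129 background, labelled "129 Stain Background", were 8 weeks old and gave 1 hemisphere each. The KO group held 2 females and 2 males, and the WT group held 3 females and 1 male. Since both copies of Lrig1 carried the insertion from conception in all cells, effects in the adult niche and effects of development cannot be told apart in these mice. The samples were bulk tissue, in which fewer cells of a type and less RNA per cell cannot be told apart either.

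The libraries held between 47887437 and 74482334 estimated counts. Lrig1 was at 13.5 to 45.6 CPM among WT mice and at 1.17 to 4.15 CPM in the KO mice, so the labels held in all 8. Its log2 fold change was -3.80 (SE 0.52) with an adjusted p of 0.286 (edgeR quasi-likelihood test with Benjamini-Hochberg adjustment). In that test 1 of the 17669 genes (0.00566%) had an adjusted p under 0.1 in the KO-WT comparison, the predicted gene Gm43079, which had no read in any KO mouse and 1.08 ± 0.0946 CPM in WT. At an unadjusted p under 0.05 there were 333 (1.88%). Markers of ependymal cells, neuroblasts, astrocytes and endothelium were all present, as were those of striatal and cortical neurons from tissue outside the niche. The summed level of 6 cortical neuron markers ranged from 78.8 to 1777 CPM over WT and from 41.6 to 850 CPM over KO mice, so this sum varied widely within both groups. None of 79 tested markers of 14 cell types passed the threshold, and the summed levels of all 14 lists overlapped between the groups.

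The 7 genes belong to unrelated families. Clec3b encodes tetranectin, a secreted C-type lectin that binds the kringle domain of plasminogen and is made mainly by mesenchymal cells. Trmt13 encodes a tRNA methyltransferase that adds a methyl group to the ribose of a nucleotide in the acceptor stem. Tfcp2l1 encodes a transcription factor of the CP2 and grainyhead family, known from naive pluripotent stem cells and from the collecting ducts of the kidney. Gucy2e encodes the membrane guanylyl cyclase of photoreceptor outer segments, which makes the cGMP of phototransduction. Plin3, also called TIP47, encodes a perilipin that moves between the cytosol and lipid droplets and that was described as a cargo protein for mannose 6-phosphate receptors. Gm37773 and Gm53013 are predicted gene models for which no function can be stated here.

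**Figure D1:**
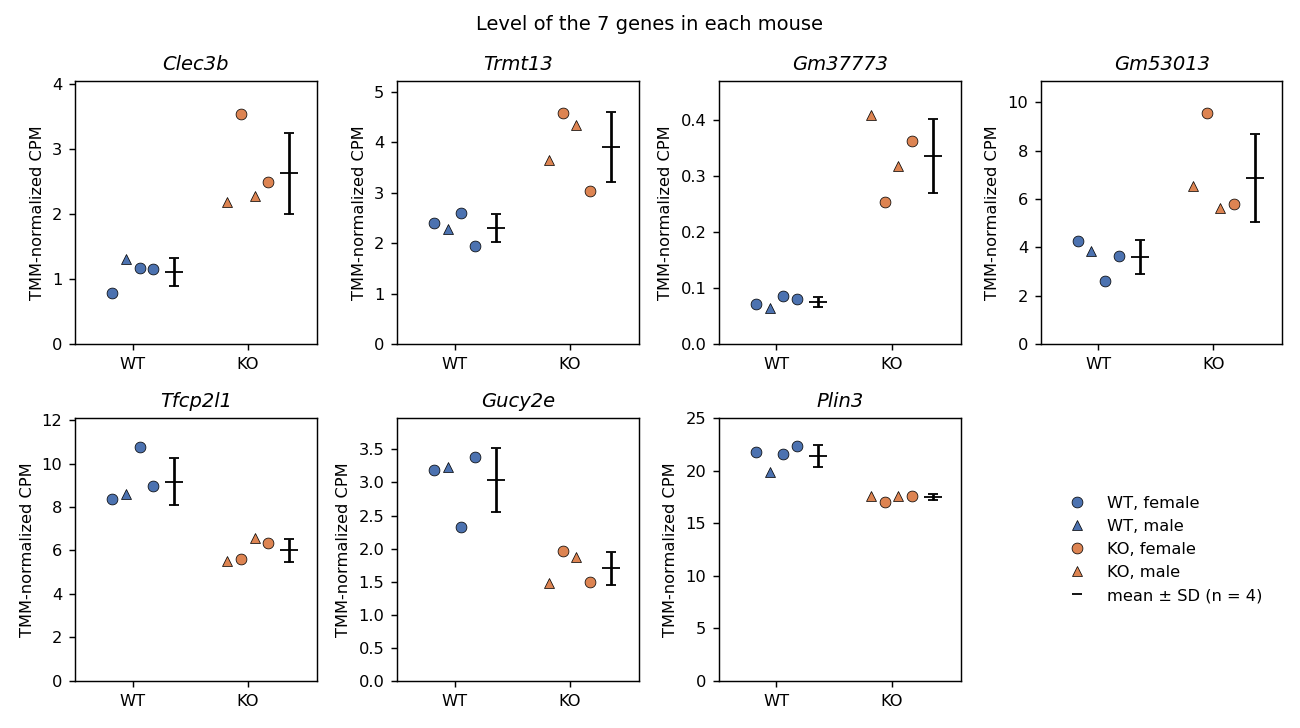
CPM of each of the 7 genes in each mouse, with 1 point per mouse (circles female, triangles male) and the mean ± SD of 4 mice beside it. Each panel has its own axis from 0. The KO points lie above all WT points in the upper row and below all WT points in the lower row. For Plin3 the 4 KO mice sit between 17.1 and 17.6 CPM, and for Clec3b they spread from 2.19 to 3.54 CPM.

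Among the genes higher in KO, Clec3b (ENSMUSG00000025784.6, chromosome 9) was at 0.792, 1.31, 1.17 and 1.16 CPM in WT replicates 1 to 4 and at 2.19, 3.54, 2.28 and 2.49 CPM in KO replicates 1 to 4. The lowest KO mouse was at 1.67 times the highest WT mouse, a male. The means were 1.11 ± 0.222 CPM in WT and 2.62 ± 0.622 CPM in KO (SD, n = 4 each), a ratio of 2.37 and a log2 fold change of 1.24 (SE 0.22). These levels rest on 44.3 to 79.6 estimated reads in a WT mouse and on 112 to 209 in a KO mouse, all given to a single transcript of 992 bases. Without KO replicate 2, the highest mouse, the log2 fold change was 1.06. Tetranectin is a product of fibroblasts in many tissues, and of the 9 tested markers of meningeal fibroblasts 2 were higher and 7 were lower in KO. Their summed level was 45.8 to 88.3 CPM in WT and 52.1 to 77.8 CPM in KO, so the KO range lay within the WT range.

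Tetranectin is linked to the plasminogen system by its binding of plasminogen. Of 14 listed genes of that system 11 were tested and none had an adjusted p under 0.1, 6 with a higher and 5 with a lower mean in KO and a median log2 fold change of 0.0078, against -0.00094 for all genes tested. In edgeR only 0.00566% of all genes passed this threshold, and Lrig1 itself did not. A count of 0 here or in the lists that follow therefore does not set a list apart from other genes. The smallest unadjusted p was that of Lrp1, a receptor that clears protease-inhibitor complexes, at 350 ± 68.4 CPM in WT and 286 ± 31.3 CPM in KO (log2 fold change -0.29, SE 0.15, adjusted p = 1.0, edgeR). Plat, which encodes tissue plasminogen activator, was at 28.1 ± 2.46 CPM in WT and 28.5 ± 0.336 CPM in KO. Plg, the gene of plasminogen itself, had at most 2 reads in any mouse. Of the closest relatives of tetranectin, Clec11a was at 1.82 ± 1.33 CPM in WT and 1.59 ± 0.533 CPM in KO (adjusted p = 1.0, edgeR), and Clec3a had at most 1 read.

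Trmt13 (ENSMUSG00000033439.13, chromosome 3) was at 2.39, 2.27, 2.60 and 1.94 CPM among WT mice and at 3.65, 4.59, 4.35 and 3.04 CPM in the KO mice. WT replicate 3 and KO replicate 4 came closest, 1.17 times apart. The means were 2.30 ± 0.278 CPM and 3.91 ± 0.700 CPM, a ratio of 1.70 and a log2 fold change of 0.76 (SE 0.17).

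The gene has 11 annotated transcripts, and 3 of them show how its reads were spread. Trmt13-201 holds a full coding sequence of 1443 bases, and Trmt13-206 and Trmt13-207 are annotated as targets of nonsense-mediated decay, the pathway that removes mRNAs with an early stop codon. Trmt13-206 lacks the first 115 of the 168 bases of exon 8 of Trmt13-201, and Trmt13-207 lacks the first 199 of the 430 bases of exon 11. The junctions that tell them apart are shown here from the GENCODE M21 transcripts, 15 bases on each side, with the first bases of the downstream exon in capitals:
Trmt13-201, into exon 8: cacctgaaacagcagGCTTCTATTCTAGGC
Trmt13-206, into exon 8: cacctgaaacagcagATGCTGAAAATGTTC
Trmt13-201, into exon 11: gtggggtggcgacagATGTTGCATTACGAT
Trmt13-207, into exon 11: gtggggtggcgacagGTGTGACTGGAGACA

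In TPM, which also corrects for transcript length, Trmt13-206 was at 0.582, 0.583, 0.691 and 0.546 among WT mice and at 1.36, 1.72, 2.36 and 1.03 in the KO mice. Its mean was 0.601 ± 0.0625 TPM in WT and 1.62 ± 0.572 TPM in KO, 2.70 times the WT mean, and the groups did not overlap. Trmt13-207 was at 1.06 ± 0.230 TPM in WT and 1.05 ± 0.156 TPM in KO, and the groups overlapped. The coding Trmt13-201 was lower than both, at 0.177 ± 0.0320 TPM in WT and 0.302 ± 0.0548 TPM in KO, again without overlap. Trmt13-208, a coding fragment of 538 bases, was at 0.323 ± 0.376 TPM in WT and 0.501 ± 0.514 TPM in KO. This fragment held from 0 to 27.6% of the TPM of the gene in a mouse, on at most 14.1 reads. As a share of all TPM of the gene, Trmt13-206 took 26.1% ± 3.95 (20.5 to 29.7%) in WT and 44.0% ± 10.2 (34.8 to 55%) in KO. Trmt13-206 was taken for this share as the transcript with the highest mean TPM over all mice (1.11, against 1.05 for Trmt13-207). In WT Trmt13-207 was higher, so this choice favours a higher share of Trmt13-206 in KO, and nothing is read from that rise. The share of Trmt13-207 was 31.9 to 62.8% in WT and 20.6 to 40.0% in KO, with overlap. The reads behind Trmt13-206 numbered 26.4 to 41.9 in a WT mouse and 70.8 to 187 in a KO mouse, and they are estimates, since most of the sequence is shared with the other transcripts.

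**Figure D2:**
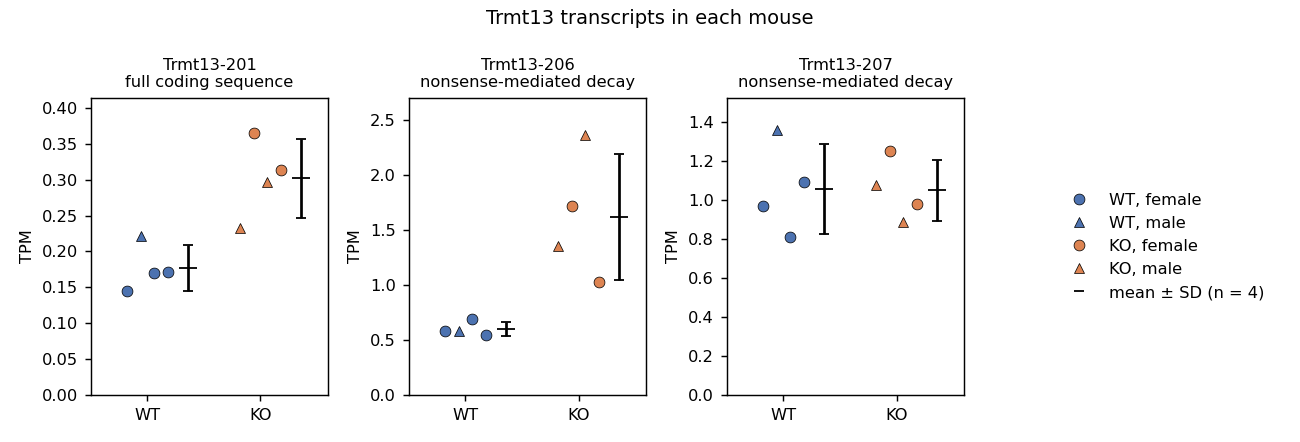
TPM of 3 Trmt13 transcripts in each mouse, with 1 point per mouse (circles female, triangles male) and the mean ± SD of 4 mice, on axes that start at 0. Trmt13-201 and Trmt13-206 separate the groups, with means of 0.177 and 0.302 TPM and of 0.601 and 1.62 TPM, whereas the groups overlap for Trmt13-207.

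Trmt13 overlaps 2 genes on the other strand, Sass6 and Lrrc39, and the sources used here do not state whether the libraries kept strand, so reads of the overlap cannot be told apart. Sass6, which encodes a scaffold protein of the centriole, was at 3.60 ± 0.434 CPM in WT and 4.89 ± 0.588 CPM in KO without overlap (log2 fold change 0.44, SE 0.14, adjusted p = 1.0, edgeR). Lrrc39 had too few reads to be tested. The tested genes on the sides, Gm42940 and Mfsd14a, had log2 fold changes of -0.058 and 0.015 with overlapping groups.

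Trmt13 was set beside the other tRNA methyltransferases. All 31 listed genes were tested and none had an adjusted p under 0.1, against 0.00566% of all genes, 18 with a higher and 13 with a lower mean in KO and a median log2 fold change of 0.043. The smallest unadjusted p was that of Nsun3, a methyltransferase of mitochondrial tRNA, at 10.8 ± 1.51 CPM in WT and 12.4 ± 0.695 CPM in KO (log2 fold change 0.20, adjusted p = 1.0, edgeR). Mettl1, which methylates guanosine in many tRNAs, was the only one of the 31, and of the 107 tested genes of all pathway lists, whose groups did not overlap (against 1.53% of all genes), at 11.4 ± 0.421 CPM in WT and 12.3 ± 0.652 CPM in KO (adjusted p = 1.0, edgeR). It was named after its values were seen.

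Gm37773 (ENSMUSG00000104033.2, chromosome 3) is a single-exon model of 2120 bases of a class that still awaits experimental evidence, and it had the largest fold change of the 7 on the fewest reads. Its estimated counts were 4 per WT mouse and 20.5, 15, 24 and 23 in KO replicates 1 to 4. Summed over the group this gave 16 reads in WT (exact Poisson 95% interval 9.15 to 26.0) and 83 in KO (66.1 to 102.9). These intervals cover counting error only and are not scaled for library size. They are no test of a difference, since the gene was chosen by that difference. In CPM it was at 0.0720, 0.0655, 0.0853 and 0.0816 in WT and at 0.410, 0.254, 0.318 and 0.363 in KO. The means of 0.0761 ± 0.0090 and 0.336 ± 0.0665 CPM gave a ratio of 4.42 and a log2 fold change of 2.12 (SE 0.31 in edgeR). In DESeq2 the log2 fold change was 2.15 with a larger SE of 0.54. Gm37773 lay at the 2.11th percentile of the CPM of all genes tested.

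Of the genes beside Gm37773, 2 were also higher in every KO mouse than in any WT mouse, against 0.657% of all genes. Gm26871, a noncoding gene that overlaps it on the same strand, so that their reads may have been split between them, was at 0.243 ± 0.0984 CPM in WT and 0.550 ± 0.150 CPM in KO without overlap (log2 fold change 1.16, SE 0.37, adjusted p = 1.0, edgeR). Gm37928, the next model on the other side, was at 0.651 ± 0.113 CPM in WT and 1.14 ± 0.170 CPM in KO without overlap (log2 fold change 0.81, SE 0.21, adjusted p = 1.0, edgeR). Snx7, the nearest protein-coding gene tested, was at 16.7 ± 1.86 CPM in WT and 17.8 ± 0.840 CPM in KO.

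Trmt13 and Gm37773 lie on the same chromosome, and in the order of GRCm38 9 tested genes lie between them. The groups overlapped for 8 of the 9 and not for 1, against 1.53% of all genes without overlap. The exception, Slc35a3, which encodes a nucleotide sugar transporter of the Golgi, was at 15.9 ± 1.31 CPM in WT and 19.4 ± 1.38 CPM in KO (log2 fold change 0.29, SE 0.090, adjusted p = 1.0, edgeR). It was named after its values were seen.

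**Figure D3:**
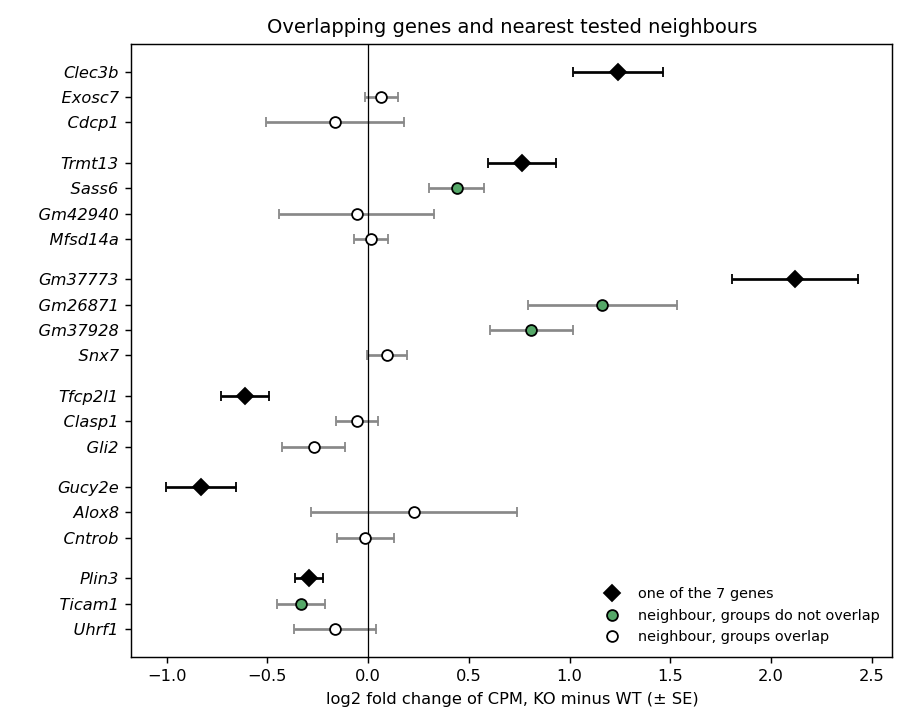
log2 fold change of CPM (KO minus WT) with its standard error for 6 of the 7 genes (diamonds) and for the tested genes that overlap them or lie nearest on each side in GRCm38 (circles, filled where the groups did not overlap). Filled circles stand beside Trmt13 (Sass6, 0.44), Gm37773 (Gm26871, 1.16, and Gm37928, 0.81) and Plin3 (Ticam1, -0.33), and all circles beside Clec3b, Tfcp2l1 and Gucy2e are open.

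Gm53013 (ENSMUSG00000118604.2) is not in the reference used here, so no position, length, sequence or neighbour is given. It was at 4.28, 3.86, 2.62 and 3.65 CPM among WT mice and at 6.52, 9.55, 5.63 and 5.80 CPM in the KO mice. KO replicate 2 stood highest, and the lowest KO mouse was at 1.32 times the highest WT mouse. The means were 3.60 ± 0.705 CPM and 6.88 ± 1.82 CPM, a ratio of 1.91 and a log2 fold change of 0.93 (SE 0.21), which was 0.73 without KO replicate 2.

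Among the genes lower in KO, 3 have a promoter in the RefSeq table (GRCm38.p6). They are shown because all 3 were lower in every KO mouse and because the study was about BMP and TGF-beta signalling, whose SMAD proteins bind short GC-rich or GTCTG motifs. The 250 bases before the start of transcription are given, with motif matches in capitals:
Tfcp2l1, chr1:118627695-118627944, plus strand: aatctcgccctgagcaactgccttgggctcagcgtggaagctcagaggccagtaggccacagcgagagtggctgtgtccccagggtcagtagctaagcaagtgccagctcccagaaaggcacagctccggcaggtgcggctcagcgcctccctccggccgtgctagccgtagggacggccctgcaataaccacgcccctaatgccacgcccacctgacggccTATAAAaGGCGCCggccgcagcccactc
Gucy2e, chr11:69237023-69237272, minus strand: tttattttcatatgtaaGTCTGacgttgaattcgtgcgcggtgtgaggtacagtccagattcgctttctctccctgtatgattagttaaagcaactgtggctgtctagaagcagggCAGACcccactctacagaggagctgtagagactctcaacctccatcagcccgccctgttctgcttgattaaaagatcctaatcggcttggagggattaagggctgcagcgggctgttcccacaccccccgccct
Plin3, chr17:56290512-56290761, minus strand: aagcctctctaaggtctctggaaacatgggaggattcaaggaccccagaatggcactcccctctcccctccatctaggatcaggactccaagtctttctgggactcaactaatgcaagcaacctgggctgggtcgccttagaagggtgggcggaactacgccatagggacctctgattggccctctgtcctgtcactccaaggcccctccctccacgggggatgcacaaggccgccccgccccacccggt
The letters searched, on both strands, were GGCGCC (found in 9.59% of 32851 promoters of this length), GTCTAGAC (0.167%), GTCTG (42.2%) and TATAAA (12.4%). In Tfcp2l1, TATAAA began 28 bases and GGCGCC 21 bases before the start, in Gucy2e GTCTG or its reverse complement began 134 and 233 bases before it, and Plin3 held none of the 4. The 2 promoters listed for Trmt13 held none either. A match is a description of the letters and not a bound site.

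Tfcp2l1 (ENSMUSG00000026380.11, chromosome 1) was at 8.35, 8.61, 10.7 and 8.97 CPM among WT mice and at 5.51, 5.59, 6.58 and 6.34 CPM in the KO mice. The highest KO mouse and the lowest WT mouse were 1.27 times apart. The means were 9.17 ± 1.08 CPM and 6.0 ± 0.535 CPM, so KO stood at 65.5% of WT (log2 fold change -0.61, SE 0.12). The transcript Tfcp2l1-201, with 15 exons and 9269 bases, held 96.9% of the TPM of the gene on average, at 1.33 ± 0.120 TPM in WT and 0.846 ± 0.128 TPM in KO.

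Of its relatives, 5 CP2 and grainyhead genes, 4 were tested and none passed the threshold, against 0.00566% of all genes, 2 with a higher and 2 with a lower mean in KO. Ubp1 and Tfcp2, the other CP2 factors, stood at 14.2 and 6.85 TPM over the 8 mice, above Tfcp2l1. Ubp1 was at 33.3 ± 2.39 CPM in WT and 31.7 ± 2.45 CPM in KO (log2 fold change -0.070, adjusted p = 1.0, edgeR), and Tfcp2 was at 13.2 ± 2.31 and 13.2 ± 1.65 CPM. Of 14 factors of naive pluripotency, the network in which Tfcp2l1 is known, 8 were tested and none passed, 2 with a higher and 6 with a lower mean (median log2 fold change -0.029). The smallest unadjusted p among them was that of Gbx2, a homeobox factor, at 1.27 ± 0.910 CPM in WT and 1.97 ± 0.690 CPM in KO (adjusted p = 1.0, edgeR).

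Gucy2e (ENSMUSG00000020890.12, chromosome 11) was at 3.18, 3.24, 2.32 and 3.38 CPM among WT mice and at 1.48, 1.96, 1.87 and 1.5 CPM in the KO mice. WT replicate 3 lay well below the other WT mice, and it was at 1.18 times the highest KO mouse. The means were 3.03 ± 0.481 CPM and 1.70 ± 0.249 CPM, so KO stood at 56.2% of WT (log2 fold change -0.83, SE 0.17). The main transcript, Gucy2e-201, was at 0.460 ± 0.137 TPM in WT and 0.224 ± 0.0374 TPM in KO without overlap, and the shorter Gucy2e-202 was at 0.0815 ± 0.0223 TPM and 0.0843 ± 0.0442 TPM with overlap. Gucy2e-201 held 83.9% ± 7.07 of the TPM of the gene in WT and 72.9% ± 9.18 in KO, and these shares overlapped.

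Since Gucy2e is best known from photoreceptors and the pineal gland, their markers were examined. Of 7 such markers 3 had enough reads to be tested, and all 3 had a higher mean in KO (median log2 fold change 0.47). For Sag the log2 fold change was only 0.0066 (SE 0.19). It was 0.47 (SE 0.29) for Grk1 and 0.52 (SE 0.58) for Nrl, which was at 0.224 CPM in WT and 0.327 CPM in KO. Their summed level was 1.88 to 2.24 CPM in WT and 1.94 to 2.69 CPM in KO, so the ranges overlapped. The guanylyl cyclases that dominated this tissue were the subunits of the nitric oxide receptor, Gucy1b1 at 136 TPM and Gucy1a1 at 68.1 TPM, whereas Gucy2f, the other retinal cyclase, stood at 0.224 TPM. Of 10 listed cyclases 9 were tested and none passed the threshold, 7 with a higher and 2 with a lower mean in KO (median log2 fold change 0.069). Gucy1b2, a further subunit of the soluble enzyme, had the smallest unadjusted p, at 0.234 ± 0.119 CPM in WT and 0.370 ± 0.108 CPM in KO (adjusted p = 1.0, edgeR).

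Of 20 other genes of the cGMP pathway 11 were tested and none passed the threshold, 7 with a higher and 4 with a lower mean (median log2 fold change 0.11). Prkg1, the cGMP-dependent protein kinase, was at 10.5 ± 1.38 CPM in WT and 13.4 ± 1.47 CPM in KO (log2 fold change 0.35, SE 0.12, adjusted p = 1.0, edgeR). It was the only one of the 107 tested genes of all pathway lists with an unadjusted p under 0.05, against 1.88% of all genes. That count was 6 with sex as a covariate, 4 without WT replicate 2, 3 without KO replicate 3, 2 without WT replicate 1 or 4 and 0 without KO replicate 2.

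Plin3 (ENSMUSG00000024197.11, chromosome 17) had the smallest fold change and the highest CPM of the 7. It was at 21.8, 19.9, 21.6 and 22.4 CPM among WT mice and at 17.6, 17.1, 17.6 and 17.6 CPM in the KO mice. The KO values lay very close together, with a coefficient of variation of 1.55% against 5.10% in WT, and WT replicate 2, the male, came nearest to them at 1.13 times the highest KO mouse. The means were 21.4 ± 1.09 CPM and 17.5 ± 0.271 CPM, so KO stood at 81.6% of WT (log2 fold change -0.29, SE 0.068).

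On the TPM scale the difference in Plin3 was larger but the groups met, at 8.17 to 12.3 TPM in WT and 5.95 to 8.37 TPM in KO, with a log2 ratio of the means of -0.58. The main transcript, Plin3-201 with 8 exons, was at 8.16 ± 0.976 TPM in WT and 6.55 ± 0.449 TPM in KO. The fragment Plin3-202, of 562 bases, was at 2.67 ± 1.03 TPM in WT and 0.675 ± 0.808 TPM in KO and was listed at 0 in KO replicates 1 and 2. Because it is short, its 13.9 to 41.7 reads in a WT mouse weighed heavily in TPM: Plin3-201 held 76.1% ± 6.91 of the TPM of the gene in WT and 91.8% ± 9.74 in KO, but as a share of the reads the KO mean was 1.84 percentage points higher.

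The other 4 perilipins were all tested and none passed the threshold, against 0.00566% of all genes, 2 with a higher and 2 with a lower mean in KO. Plin2, the perilipin that coats droplets in most cells, was at 7.36 ± 0.787 CPM in WT and 7.21 ± 0.706 CPM in KO. Plin1, of adipocytes, had the smallest unadjusted p of the 4 at 0.10 ± 0.0986 CPM in WT and 0.187 ± 0.0193 CPM in KO (adjusted p = 1.0, edgeR).

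Of 17 lipid droplet proteins and lipases 15 were tested and none passed, 8 with a higher and 7 with a lower mean (median log2 fold change 0.0096). Mgll, which hydrolyses monoacylglycerol, had the smallest unadjusted p at 248 ± 65.4 CPM in WT and 195 ± 22.5 CPM in KO (adjusted p = 1.0, edgeR). The 13 genes of mannose 6-phosphate receptor trafficking were all tested and none passed, 5 with a higher and 8 with a lower mean (median log2 fold change -0.032). Rab9b, a GTPase of the late endosome, had the smallest unadjusted p at 42.7 ± 7.89 CPM in WT and 55.1 ± 15.1 CPM in KO (adjusted p = 1.0, edgeR).

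The gene next to Plin3 on the same strand, Ticam1, which encodes an adaptor of Toll-like receptors, was at 5.32 ± 0.267 CPM in WT and 4.22 ± 0.499 CPM in KO without overlap (log2 fold change -0.33, SE 0.12, adjusted p = 1.0, edgeR). Among markers of other cells, the microglial Csf1r was at 126 ± 19.0 CPM in WT and 98.5 ± 16.5 CPM in KO and the astrocytic Gfap at 80.9 ± 20.1 CPM and 59.5 ± 8.22 CPM. Pdgfrb, of pericytes, was at 27.0 ± 4.87 CPM and 21.4 ± 2.25 CPM. These 3 of the 79 tested markers had an unadjusted p under 0.05, all with a lower mean in KO, against 1.08% of all genes in that direction and 1.88% in either, and their adjusted p was 1.0 in edgeR. In their lists of 6 markers each, microglia had 1 higher and 5 lower means in KO. Neural stem cells and astrocytes also had 1 higher and 5 lower, and mural cells 0 and 6. The microglial P2ry12 was at 57.4 ± 8.38 CPM in WT and 58.7 ± 7.03 CPM in KO. Slc1a3, of astrocytes, was at 669 ± 78.8 CPM in WT and 671 ± 107 CPM in KO. Whether cell composition had a part in the levels of Plin3, Tfcp2l1 or Gucy2e was not tested.

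**Figure D4:**
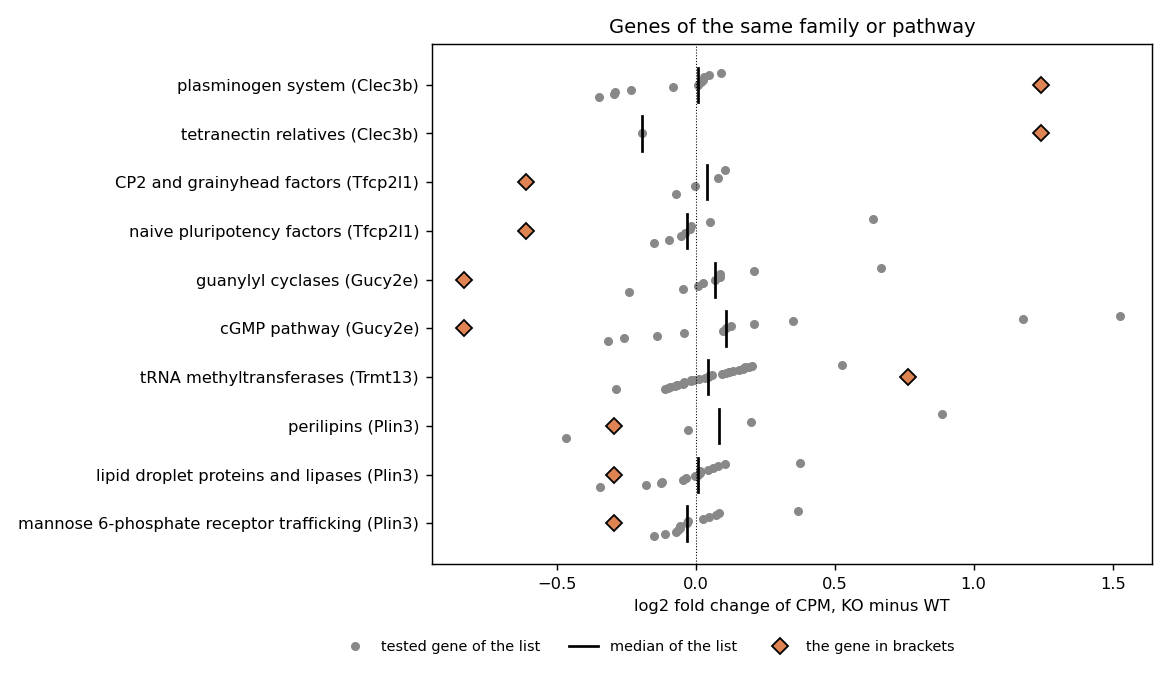
log2 fold change of CPM (KO minus WT) of the tested genes of each family or pathway list (grey points, with the median as a bar) and of the gene each list was made for (diamond, named in brackets). The list medians lie between -0.19 and 0.11, and no grey point passed the threshold.

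Across the mice, KO replicate 2 was the KO mouse farthest from WT in 4 of the 7 genes, and WT replicate 3 was the WT mouse nearest to KO in 3. Between the groups, the distance from the nearest KO to the nearest WT mouse ranged from 0.170 in log2 CPM for Plin3 to 1.27 for Gm37773, and over the 271 genes its median was 0.0414. Among genes with a mean of at least 1 CPM, those just inside the criterion were Vdac2 and Bcl10, with distances of 0.00024 and 0.00058, and those just outside were Psmc4 and Uprt, at -9.72e-07 and -0.00044, where a negative distance is an overlap.

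The separation depended on the scale for some of the 7. In TPM, 6 of them have a value, and 3 of the 6 still kept the groups apart, namely Clec3b, Tfcp2l1 and Gm37773. The share of all genes that keep the groups apart in TPM was not counted, so these 3 cannot be set against it. Trmt13 was at 1.84 to 2.84 TPM in WT and 2.69 to 4.80 TPM in KO, and Gucy2e was at 0.362 to 0.647 TPM in WT and 0.238 to 0.389 TPM in KO. The median ratio of TPM to CPM over the genes differed between the mice, from 0.483 in WT replicate 3 to 0.635 in WT replicate 4.

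Both groups held females and males, so groups that do not overlap leave little room for a sex difference, and the values by sex are a description. In a model with genotype and sex (edgeR), the log2 differences of the 7 genes, male minus female, ran from -0.13 to 0.092 with standard errors of 0.074 to 0.35 (5 females, 3 males). Over all genes 657 (3.72%) had an adjusted p under 0.1 for sex and 0 of the 7 did, a count that the choice of the genes favours and from which nothing is read. The summed cortical neuron markers were at 466 to 1777 CPM in the 3 males and at 41.6 to 346 CPM in the 5 females. Sex and cortical tissue in the sample therefore cannot be told apart in that model. The KO-WT ratio was 2.89 in females and 1.71 in males for Clec3b, 3.87 and 5.56 for Gm37773, 2.18 and 1.57 for Gm53013 and 1.65 and 1.76 for Trmt13. For the genes lower in KO it was 0.637 and 0.702 for Tfcp2l1, 0.584 and 0.517 for Gucy2e and 0.790 and 0.888 for Plin3. With 1 WT male, whether these ratios differed between the sexes was not tested.

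The genes whose pattern over the 8 mice came closest to each of the 7 were found by the root mean square difference of centred log2 CPM. For Plin3 they were Trf (0.061), Atg2a (0.064) and Mprip (0.067). For Tfcp2l1 they were Mmp28 (0.10), Depdc7 (0.12) and Ms4a6b (0.16), and for Gucy2e Lcat (0.14), Gm21269 (0.19) and Gm7451 (0.22). For Trmt13 they were Kdm4dl (0.17), Sigirr (0.18) and the overlapping Sass6 (0.21), and for Gm53013 Dmrtb1 (0.19), T2 (0.22) and Sh2d6 (0.23). Gm37928, which lies beside Gm37773, was the closest to Clec3b (0.27), and Mtfr2 (0.33) was the closest to Gm37773. Within the 7, Tfcp2l1 and Plin3 were the most alike (0.20). They also had the smallest fold changes, which lower this measure, and the genes were chosen for the same split of the mice. Nothing is therefore read from their likeness.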

How the data were processed

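Bulk RNA-seq was done on 4 KO and 4 WT V-SVZ samples. The authors made polyA-selected libraries, sequenced them on 1 NovaSeq lane (bcl2fastq 2.20) and quantified them with Salmon against Gencode M29 of GRCm39. The Salmon version and strandedness were not given in the sources used here. The authors deposited expected counts (estimated counts) per gene, and the deposited files of single mice hold estimated reads and TPM per transcript.

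Counts were rounded and fitted on 17669 genes after filterByExpr with edgeR 4.0.16 (R 4.3.3), TMM normalization, the quasi-likelihood test and Benjamini-Hochberg adjustment, at an adjusted p under 0.1, the level at which the study listed its differentially expressed genes. All 8 mice entered the fit without covariates. DESeq2 1.42.0 was an alternative. The study, which used DESeq2, listed many more genes at that level than either fit here, which called 1 in edgeR and 13 in DESeq2. In the list of the study Lrig1 was the most significant of the genes lower in KO. The tests were run on simulated data first. The SE given with an edgeR log2 fold change is its size divided by the square root of the F statistic of the test. CPM are TMM-normalized, at a depth of 47887437 to 74482334 counts per mouse.

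The 7 genes and all lists were chosen with earlier results of these data known. Genes named beside them were the smallest unadjusted p of each list, those that overlap or flank the 7, those at the edge of the criterion, the closest patterns, and markers with an unadjusted p under 0.05. Transcript shares are given without the permutation test that had been planned, because they come from the comparison that chose the genes. Names, neighbours and transcripts came from Gencode M21 of GRCm38, which matched 97.41% of transcripts, and promoters from RefSeq. Gene names matched 94.8% of identifiers. The name of Gm53013 came from the study's supplementary list of differentially expressed genes. Other settings were DESeq2 size factors, raw CPM, TPM, other filters, sex, a block and leaving out each mouse. Replicates were separate mice.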

Additional observations from a re-analysis of the deposited data

Results flagged for a closer look

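The Plin3 level of KO replicate 2, a female, was 17.1 CPM, below the 17.6 CPM of the other 3 KO mice, and its distance to the nearest was 0.925 of the whole KO range, above Dixon's critical value for 4 samples. It was the 1 such mouse in 22 groups of 4 examined, of which chance marks about 1 in 20. The 4 KO values of Plin3 were so close that this distance is small beside that to WT, and the log2 fold change of Plin3 without this mouse was -0.28.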

How the results depend on the processing

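The log2 fold changes of the 7 genes kept their direction, which the choice of the genes fixes, in all 103 pairs of gene and setting. Only that of Plin3 moved by more than the spread between mice, to -0.58 in TPM. The groups of all 7 stayed apart in every CPM setting in which they had a value. The choice of the genes by CPM largely fixes this, and leaving out a mouse can hardly undo it, so nothing is read from it. Gm37773 had no value under a minimum of 10 counts in each mouse. In TPM, a setting added after the data were seen, 3 of 6 stayed apart, a count without a share of all genes beside it. The number of genes whose groups do not overlap, 271, was 419 without a filter and 458 to 932 with 1 mouse left out, which makes the criterion easier by construction. No pathway gene passed under any of 14 settings. Over all genes, edgeR called 1, DESeq2 13, edgeR with sex 2, without a filter 2, with a minimum of 10 counts 0 and with a mouse left out 0 (WT replicate 1 or 4) to 3 (WT replicate 2). The replicate numbers did not pair the mice (correlations of deviations -0.22 to 0.27), and with the replicate block 0 pathway genes and 0 of all genes passed. Levels under 1 CPM, as for Gm37773, rest on few reads.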

Other observations

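Genes whose groups do not overlap were counted on the chromosomes that carry the 7 genes and Lrig1. Over all chromosomes they made up 1.53% (271 of 17669), and the shares that follow include the 7 genes and Lrig1 themselves. They made up 2.76% of the 905 genes tested on chromosome 3, where Trmt13 and Gm37773 lie, and 2.35% of the 1022 on chromosome 9, where Clec3b lies. On chromosomes 1, 11 and 17, with Tfcp2l1, Gucy2e and Plin3, they made up 1.53%, 1.38% and 1.39%, and on chromosome 6, with Lrig1, 1.26%. These shares are given as values, with no test.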
